A study of Mus musculus with 16 samples.

Results

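The 10 genes described here separated Cdk8-deficient from Cdk8-proficient leukemic cell lines and were followed through 16 RNA sequencing libraries: Sva, Nradd, Guca1a, Upk3bl, Col27a1, Tmem106a, Slc15a2, Kif3c, 5930430L01Rik and Jmjd8. They were selected on their difference between genotypes in these same data, so the genotype values given for them are a description and not a test. These are 10 of 50686 genes in the count files, and all 10 were among the 14164 genes with enough counts to be tested over all libraries. The cells were mouse bone-marrow pro-B cells of the C57BL/6N strain, made leukemic with a retrovirus that carries the fusion kinase BCR-ABL1p185. There were 4 wild-type lines, which the study's methods call Cdk8 fl/fl, and 4 Cdk8 knockout (Cdk8Δ/Δ Vav-Cre) lines, each derived on its own. In the knockout lines, Cre recombinase under the hematopoietic Vav promoter removed the gene part flanked by loxP sites. Cre is named only for the knockout lines, so the loss of CDK8 and the presence of the transgene cannot be told apart. Every line was cultured with the solvent DMSO and with 1 µM Senexin B for 48 h, which gave 4 groups of 4 libraries. Libraries of one genotype that carry the same replicate number come from one line, and the number of mice behind the lines is not given in the sources used here.

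CDK8 is the kinase of a module of the Mediator complex, which links transcription factors to RNA polymerase II. Deleting the gene removes the whole protein, kinase and scaffold together, whereas Senexin B blocks the kinase activity of CDK8 and of its paralog CDK19 and leaves the proteins in place. The 10 genes share no common pathway. Several are known from tissues far from the B lineage: Sva encodes a secreted protein of the seminal vesicle that binds sperm, Guca1a the calcium sensor that controls guanylate cyclase in photoreceptors, and Upk3bl a relative of the uroplakins of the bladder lining. Slc15a2 encodes a proton-driven transporter of short peptides, known from kidney, and Col27a1 a collagen chain known from cartilage.

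Library totals of reads on genes ranged from 13145876 to 18349425, with a median of 15473664. Levels are given as counts per 1000000 (CPM) after TMM scaling, and a call needed a fold change above 2 together with an adjusted p below 0.05. Of 15 pro-B cell markers, all were tested and 0 called between genotypes in DMSO, beside 0.00759% of 13174 tested genes. The summed pro-B marker level was 6760 to 8515 CPM in wild-type and 6839 to 8600 CPM in knockout DMSO libraries. Rag1 and Rag2, which cut immunoglobulin genes for recombination, were the 2 pro-B markers with an unadjusted p under 0.05. Both were higher in knockout lines, with log2 fold changes of 3.51 and 3.60 (unadjusted p = 0.000896 and 0.00449, edgeR). Their mean knockout DMSO levels, 31.0 and 16.5 CPM, are a small part of the summed level. A marker that was not called can still differ. Cdk8 RNA itself was 62.9 to 67.3 CPM in wild-type and 35.4 to 50.5 CPM in knockout DMSO libraries. With Senexin B it was 54.9 to 89.4 CPM and 40.8 to 60.3 CPM, and the genotypes overlapped. The count covers the whole gene, exons outside the deleted part included.

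The promoters of the 10 genes differed widely in CpG content. RefSeq windows from 250 bases before to 50 bases after each annotated start (build GRCm38.p6) were found for all 10 genes, as 11 windows, since Tmem106a has 2. For some genes the RefSeq start differs from the gene start used for counting, most for Upk3bl and Col27a1. Among all 32851 mouse windows the median number of CpG pairs was 7, and 5.43% of windows held none. The Sva window (chr6:42038144-42038443, plus strand) is one of those without a CpG pair. Nradd (chr9:110624344-110624643, minus strand) has 20 CpG pairs, the most of the 11 windows, Slc15a2 (chr16:36784913-36785212, minus strand) has 5, and the long noncoding 5930430L01Rik (chr5:148995165-148995464, minus strand) has 14. These 4 are printed because they show the range between the gene without counts in one genotype, a CpG-rich gene that was higher in knockout lines, the gene with the lowest level in knockout lines and the gene nearest to Cdk8. Capitals mark CpG pairs and, where present, CACGTG and TTCNNNGAA matches.
Sva: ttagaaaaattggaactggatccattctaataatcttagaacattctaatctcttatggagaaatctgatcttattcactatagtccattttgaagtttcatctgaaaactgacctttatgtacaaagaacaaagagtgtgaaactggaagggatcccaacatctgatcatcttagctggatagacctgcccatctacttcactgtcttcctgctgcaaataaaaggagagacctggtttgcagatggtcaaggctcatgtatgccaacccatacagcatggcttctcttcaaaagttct
Nradd: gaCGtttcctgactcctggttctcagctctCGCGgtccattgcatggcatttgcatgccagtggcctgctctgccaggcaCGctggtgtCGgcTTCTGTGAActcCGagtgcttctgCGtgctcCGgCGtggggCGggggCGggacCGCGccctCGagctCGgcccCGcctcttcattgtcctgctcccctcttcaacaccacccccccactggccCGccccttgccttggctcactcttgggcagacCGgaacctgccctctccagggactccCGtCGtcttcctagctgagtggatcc
Slc15a2: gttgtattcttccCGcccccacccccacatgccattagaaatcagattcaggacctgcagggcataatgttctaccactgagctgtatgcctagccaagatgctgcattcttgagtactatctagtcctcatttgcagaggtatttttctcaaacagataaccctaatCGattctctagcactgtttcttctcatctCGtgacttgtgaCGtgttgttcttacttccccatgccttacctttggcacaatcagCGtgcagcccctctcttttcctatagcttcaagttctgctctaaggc
5930430L01Rik: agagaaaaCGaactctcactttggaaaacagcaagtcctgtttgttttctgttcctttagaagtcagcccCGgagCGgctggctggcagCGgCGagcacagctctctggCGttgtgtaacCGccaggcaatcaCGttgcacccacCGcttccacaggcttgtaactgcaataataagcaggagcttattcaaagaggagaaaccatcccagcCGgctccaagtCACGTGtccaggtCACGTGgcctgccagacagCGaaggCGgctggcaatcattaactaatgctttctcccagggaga
The other windows held 3 (Upk3bl), 8 (Guca1a), 15 (Kif3c), 17 (Jmjd8) and 18 (Col27a1) CpG pairs, and those of Tmem106a 15 and 19. The 3 motifs below were searched on both strands. The TATA box TATAAA was in 0 of the 11 windows and in 13.6% of all windows. The E-box CACGTG was in the 5930430L01Rik window alone, where it occurs 2 times, and 0.594% of all windows hold 2 or more. The STAT motif TTCNNNGAA was in the Nradd window alone, against 8.3% of all windows. A match is only a match of letters, and the counts of CpG pairs were not related to the levels by any test.

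Of the 10 genes, 7 had higher and 3 had lower mean levels in the knockout lines. In DMSO, 9 of the 10 genes did not overlap between genotypes, against 2.89% of all 14164 tested genes. With Senexin B the number was 6, against 1.09%, and over both treatments together 5 genes (Sva, Nradd, Guca1a, Slc15a2 and Jmjd8) kept all 8 knockout libraries on one side of all 8 wild-type libraries, against 0.127% of tested genes. Since the genes were chosen by this separation, nothing is read from these shares. In edgeR's quasi-likelihood test, Sva was the 1 gene called in DMSO, 0.00759% of 13174 tested genes. Without any 1 of the 8 DMSO libraries Sva was no longer called, with an adjusted p between 0.0628 and 0.41. DESeq2 called 7 of the 10 genes in DMSO, beside 0.116% of all genes it tested, and left out Upk3bl, 5930430L01Rik and Jmjd8. All 10 had an unadjusted p under 0.05 in DMSO, a property of 5.32% of tested genes. With Senexin B, edgeR called 0 of the 10, beside 0.0% of 13010 tested genes, although 8 had an unadjusted p under 0.05; DESeq2 called 3 (Sva, Slc15a2 and 5930430L01Rik), beside 0.0358%. Sva was also the single call with Senexin B when no filter on low counts was used (0.00358% of genes) and when both libraries of a line were summed (0.00676%).

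**Figure D1:**
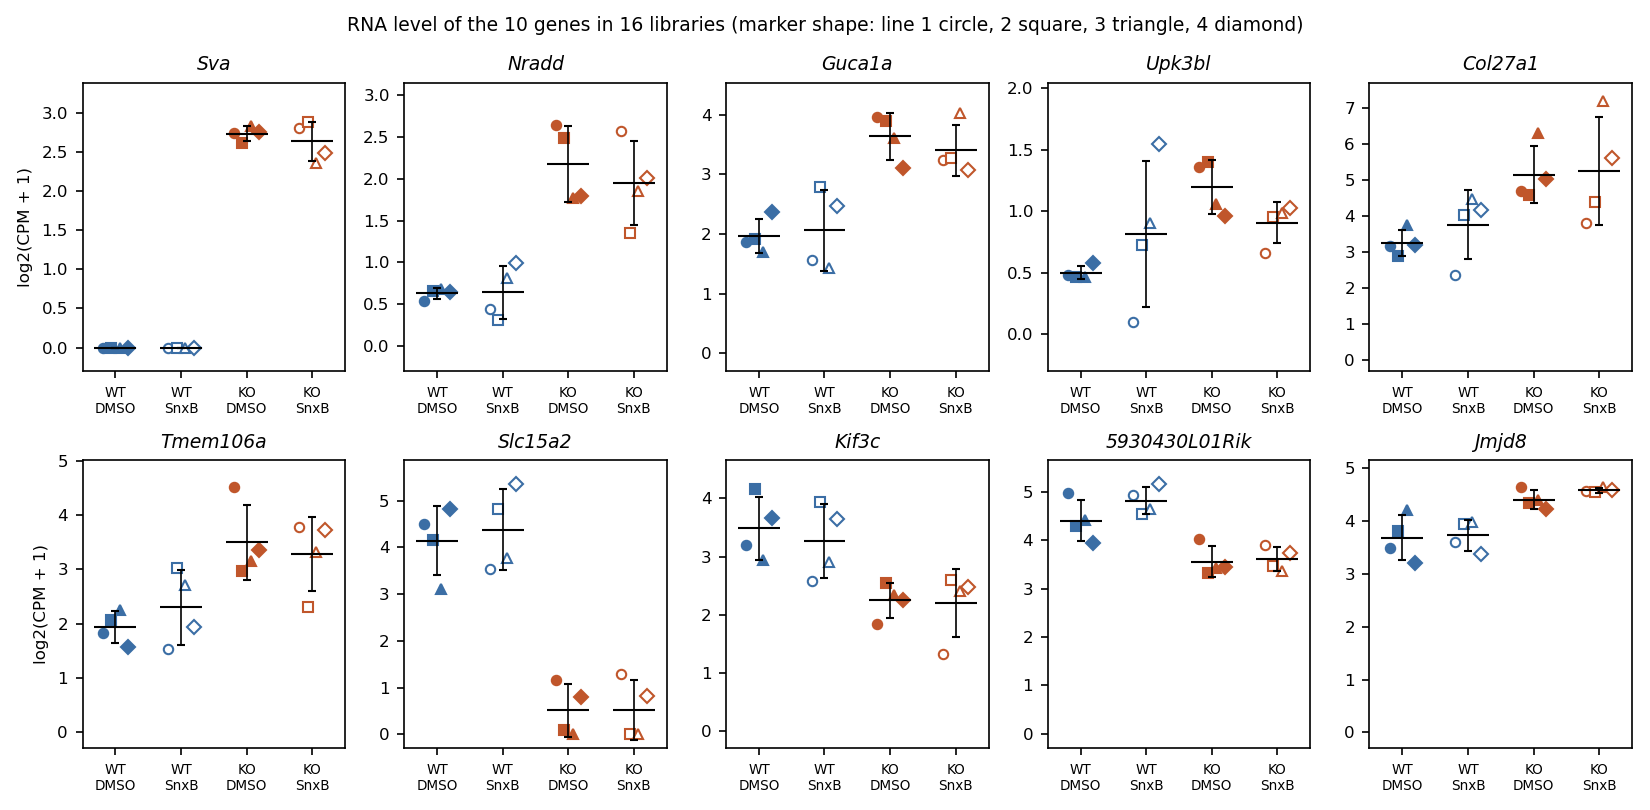
Level of each of the 10 genes as log2(CPM + 1) in the 16 libraries, by genotype (blue wild-type, orange knockout) and treatment (filled DMSO, open Senexin B); shapes mark lines 1 to 4, and black bars give the mean and SD of 4 libraries. Sva lies at 0 in all 8 wild-type libraries, and Slc15a2 is near 0 in the knockout lines 2 and 3.

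Sva (ENSMUSG00000023289; GRCm38 chromosome 6, 42038394 to 42042851, plus strand, 4 exons of 651 bases in all) was present in every knockout library and absent from the counts of every wild-type library. The knockout lines 1 to 4 had 91, 84, 96 and 79 counts in DMSO and 103, 95, 68 and 67 counts with Senexin B, while all 8 wild-type libraries had 0. In CPM this was 5.67 ± 0.42 (SD, n = 4) in DMSO and 5.29 ± 1.07 with Senexin B. Against a floor of 3 counts per wild-type library, which covers counting error only, the level was at least 26.8-fold higher in DMSO and at least 21.6-fold higher with Senexin B. Per kilobase of exon, the DMSO level of 8.71 CPM per kb was above 61.3% of tested genes and that with Senexin B, 8.12 CPM per kb, was above 58.9%. Among the 8 knockout libraries the variance of the depth-scaled counts was 1.72 times their mean. Of 1255 genes within a factor of 1.5 of the same level, the median ratio was 11.3 and 6.13% had a lower ratio. Sva was chosen for its genotype difference in these libraries, which favours a small spread, and each line gave 2 of the 8. The ratio is therefore a description. Under a rule set after the data were seen, at least 10 counts in all 8 knockout libraries and at most 1 in all 8 wild-type libraries, Sva was the 1 gene found, and the reverse rule found 0 genes.

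The relatives of Sva had no counts, and its tested neighbours were not called. Sval1, Sval2, Sval3 and Pip, the other genes of the family to which Sva belongs, had 0 counts in all 16 libraries. Of 8 seminal vesicle markers, which encode the main secreted proteins of that gland, 0 were tested, 3 had 0 counts in every library, and their summed level was at most 0.201 CPM in any library. Of 46 annotated genes within 500 kb of Sva, 16 had a count and 3 were tested, with log2 fold changes from -0.01 to 0.81 in DMSO. The nearest tested gene, Gstk1 at 203 kb, had 1.94 CPM in wild-type and 3.35 CPM in knockout DMSO libraries (adjusted p = 0.908, edgeR). On the other side the nearest tested gene was Ssbp1, at 1554 kb.

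Besides Sva, the genes Nradd, Guca1a and Jmjd8 were higher in all knockout libraries than in all wild-type libraries under both treatments. Nradd (ENSMUSG00000032491; chromosome 9, 110621135 to 110624452, minus strand) encodes a membrane protein with a death domain, related to the p75 neurotrophin receptor. Its wild-type DMSO libraries had 0.453, 0.576, 0.603 and 0.565 CPM and the knockout DMSO libraries 5.25, 4.62, 2.42 and 2.48 CPM, a mean 6.73-fold apart. With Senexin B the values were 0.360, 0.244, 0.760 and 0.995 CPM in wild-type and 4.94, 1.54, 2.62 and 3.04 CPM in knockout lines. The groups did not overlap, but the lowest knockout library was then 1.55 times the highest wild-type library, compared with 4.02 times in DMSO. Of the 9 other listed neurotrophin receptors and partners 3 were tested and 0 called; all 3 had higher estimates in knockout lines, with log2 fold changes of 0.28 (Sort1), 1.19 (Sorcs2) and 1.64 (Maged1) and unadjusted p of 0.738, 0.257 and 0.269 from edgeR.

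Guca1a (ENSMUSG00000023982; chromosome 17, 47394560 to 47400584, minus strand) was expressed in both genotypes. Wild-type DMSO libraries had 2.66, 2.75, 2.25 and 4.17 CPM and knockout DMSO libraries 14.6, 13.9, 11.2 and 7.58 CPM. With Senexin B they had 1.95, 5.94, 1.68 and 4.52 CPM and 8.43, 8.66, 15.4 and 7.39 CPM. The mean difference was 4.00-fold in DMSO and 2.83-fold with Senexin B, and in both the lowest knockout library was line 4. Per kilobase, Guca1a in knockout DMSO lines (13.6 CPM per kb) had the highest level of the 10 genes in any group. Of 9 photoreceptor markers, 1 (Sag) was tested, with a log2 fold change of -0.12 in DMSO (adjusted p = 0.986, edgeR), and their summed level was 0.603 to 3.11 CPM in wild-type and 1.08 to 1.75 CPM in knockout DMSO libraries. Of the listed guanylate cyclase activators and related sensors, 1 (Ncs1) was tested, with a log2 fold change of -0.44 (adjusted p = 0.959, edgeR).

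Jmjd8 (ENSMUSG00000025736; chromosome 17, 25828867 to 25831842, plus strand) encodes a protein of the endoplasmic reticulum with a JmjC domain. Its difference was the smallest in fold of the genes without overlap, 1.66-fold in DMSO and 1.85-fold with Senexin B. Wild-type DMSO libraries had 10.2, 13.1, 17.3 and 8.26 CPM and knockout DMSO libraries 23.9, 19.1, 20.1 and 17.7 CPM, so the closest libraries were 1.02 times apart. With Senexin B the ranges were 9.34 to 14.8 CPM and 22.2 to 24.0 CPM. The coefficient of variation in the knockout group with Senexin B was 3.47%. Of its 2758 exonic bases, 27.1% are shared with genes on the other strand, mainly Stub1. The counting used no strand, and reads on several genes were dropped. Stub1 itself had a log2 fold change of -0.03 in DMSO. Of the 10 other JmjC-domain genes listed, 9 were tested, 5 were higher and 4 lower in knockout lines, and 0 were called.

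Upk3bl, Col27a1 and Tmem106a were higher in knockout lines in DMSO but overlapped with Senexin B. Upk3bl (ENSMUSG00000006143; chromosome 5, 136054492 to 136064326, plus strand) was a low gene, with 6 or 7 counts in each wild-type DMSO library and 25, 27, 17 and 13 counts in the knockout DMSO libraries. With Senexin B the wild-type lines had 1, 8, 16 and 25 counts and the knockout lines 10, 14, 16 and 15, so the 3.16-fold difference in DMSO became 1.01-fold. The 4 wild-type DMSO libraries, 0.384 to 0.494 CPM, lay much closer together than the same lines with Senexin B, 0.0720 to 1.91 CPM. Upk1a was the 1 other uroplakin gene tested, with a log2 fold change of 0.98 in DMSO (adjusted p = 0.897, edgeR).

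Col27a1 (ENSMUSG00000045672; chromosome 4, 63214004 to 63334991, plus strand) was dominated by knockout line 3. Wild-type DMSO libraries had 8.03, 6.47, 12.6 and 8.19 CPM and knockout DMSO libraries 24.8, 22.9, 77.2 and 31.5 CPM. With Senexin B they had 4.11, 15.2, 21.2 and 17.1 CPM and 13.1, 20.01, 144 and 47.3 CPM, so that knockout line 1 fell below wild-type lines 2, 3 and 4 and knockout line 2 below wild-type line 3. Without knockout line 3 in DMSO, the log2 fold change between genotypes moved from 2.17 to 1.61. The 10 other fibrillar collagen genes included 3 that were tested (Col5a2, Col5a3 and Col11a2), with log2 fold changes of -3.04, -0.68 and -0.22 and 0 calls.

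Tmem106a (ENSMUSG00000034947; chromosome 11, 101582242 to 101591788, plus strand) encodes a single-pass membrane protein known from macrophages. It ranged from 1.98 to 3.78 CPM in wild-type and from 6.87 to 21.8 CPM in knockout DMSO libraries, with knockout line 1 the highest. With Senexin B the ranges were 1.87 to 7.17 CPM and 3.96 to 12.7 CPM, and knockout line 2 lay below wild-type lines 2 and 3. Of the 10 myeloid markers 1 (Lyz2) was tested, with a log2 fold change of 1.10 and an adjusted p of 0.937, and 3 had 0 counts in all libraries. Tmem106b and Tmem106c, the paralogs, had log2 fold changes of 0.30 and -0.08 in DMSO.

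Slc15a2 (ENSMUSG00000022899; chromosome 16, 36750178 to 36784962, minus strand) had the lowest level in knockout lines. The wild-type DMSO libraries had 382, 264, 139 and 385 counts and the knockout DMSO libraries 20, 1, 0 and 10. With Senexin B the counts were 147, 335, 235 and 525 in wild-type and 25, 0, 0 and 11 in knockout lines. Knockout lines 2 and 3 were therefore at or below 1 count under both treatments, whereas lines 1 and 4 kept a low level that was alike with DMSO and with Senexin B (1.25 and 1.45 CPM in line 1, 0.728 and 0.760 CPM in line 4). Mean levels were 35.9-fold apart in DMSO and 41.0-fold with Senexin B. The other peptide and histidine transporters tested, Slc15a3 and Slc15a4, both had log2 fold changes of 0.13 in DMSO.

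Kif3c (ENSMUSG00000020668; chromosome 12, 3365132 to 3406494, plus strand) encodes a subunit of kinesin-2, a motor that moves cargo along microtubules. It was 6.64 to 16.8 CPM in wild-type and 2.56 to 4.80 CPM in knockout DMSO libraries, and 4.97 to 14.3 CPM and 1.51 to 5.04 CPM with Senexin B. The overlap with Senexin B came from wild-type line 1, which lay 0.987 times the highest knockout library. Genes on the other strand share 40.7% of the 7406 exonic bases of Kif3c; the expressed one, 1110002L01Rik, had a log2 fold change of 0.17 in DMSO. The remaining kinesin-2 genes Kif3a, Kif3b and Kifap3 had log2 fold changes of -0.34, -0.15 and -0.04, and Kif17 one of 2.79 (SE 1.20, adjusted p = 0.897, edgeR).

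5930430L01Rik (ENSMUSG00000106951; chromosome 5, 148990056 to 148995223, minus strand) is a long noncoding RNA in RefSeq and lies 2.69 Mb from Cdk8. Wild-type DMSO libraries had 30.2, 18.7, 20.5 and 14.3 CPM and knockout DMSO libraries 15.3, 9.06, 9.69 and 9.91 CPM. It was the 1 gene of the 10 that overlapped in DMSO, where knockout line 1 lay above wild-type line 4, and with Senexin B the overlap was gone (22.3 to 34.5 CPM against 9.27 to 14.0 CPM). The fold between means was 1.90 in DMSO and 2.42 with Senexin B. Other genes near Cdk8 were counted after the data were seen: within 3 Mb, 62 genes were tested in DMSO, 5930430L01Rik among them, and 5 (8.07%) had an unadjusted p under 0.05, all 5 lower in knockout lines, beside 5.32% of all tested genes, with a median log2 fold change of -0.01 over the 62 genes. 5930430L01Rik is 1 of the 5 and was chosen for its genotype difference. Within 10 Mb 5 of 163 genes were higher and 5 lower at that p (6.13%), and within 20 Mb 10 of 239 were higher and 6 lower (6.69%). On the whole of chromosome 5 the share was 4.80% of 876 genes. Upk3bl lies on the same chromosome, 10.2 Mb from Cdk8, and differed in the opposite direction.

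The answer to Senexin B was not used to choose the genes, although libraries are shared with the comparison that chose them. None of the 10 genes was called in any Senexin B fit. In wild-type lines 7 of the 10 passed the filter on low counts (Sva, Nradd and Upk3bl did not), 0 were called by edgeR, beside 0.0% of 12989 tested genes, and 0 had an unadjusted p under 0.05. With the line as a block the number remained 0, beside 0.346% of tested genes. In knockout lines, where all 10 were tested, 0 were called, beside 0.0% of 13285 genes, and 0 of 10 with the block, beside 0.0527%. Over all 16 libraries 0 of 10 were called, beside 0.0% of 14164 genes, and with the block 0 of 10 beside 0.946%. The block raised the calls over all genes from 0 to 134. At an unadjusted limit of 0.05, the same edgeR fit passed 16.4% of all tested genes and 0 of the 10. With such shares, 10 genes are too few to tell this result from the background, and no stability of the 10 is read from it. DESeq2 also called 0 of the 10 in each of these comparisons.

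The Senexin B changes of the 10 genes were as large as those of other genes in the median. In the blocked edgeR fit over 8 lines, the log2 fold changes of the 10 genes ran from -0.18 (Nradd, SE 0.26, adjusted p = 0.792) to 0.33 (Col27a1, SE 0.26, adjusted p = 0.581). The estimate for Sva rests on the 4 knockout lines alone, since the wild-type lines had no counts, and was -0.12 (SE 0.20, adjusted p = 0.866, edgeR) in the blocked fit of those lines. Slc15a2 had 0.23 over 8 lines (SE 0.25, adjusted p = 0.715, edgeR). 5930430L01Rik had the smallest adjusted p, 0.442, with a log2 fold change of 0.25 (SE 0.15). For Upk3bl the estimate was 0.02 with an SE of 0.38, the widest error of the 10 genes. As log2(CPM + 1), the median absolute change over 8 lines was 0.113 for the 10 genes and 0.110 for all 14164 tested genes. Sva, with no wild-type counts, and Slc15a2, with 0 counts in both libraries of knockout line 3, could not change in one direction in all 8 lines; of the other 8 genes 0 did, against 4.53% of tested genes.

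**Figure D2:**
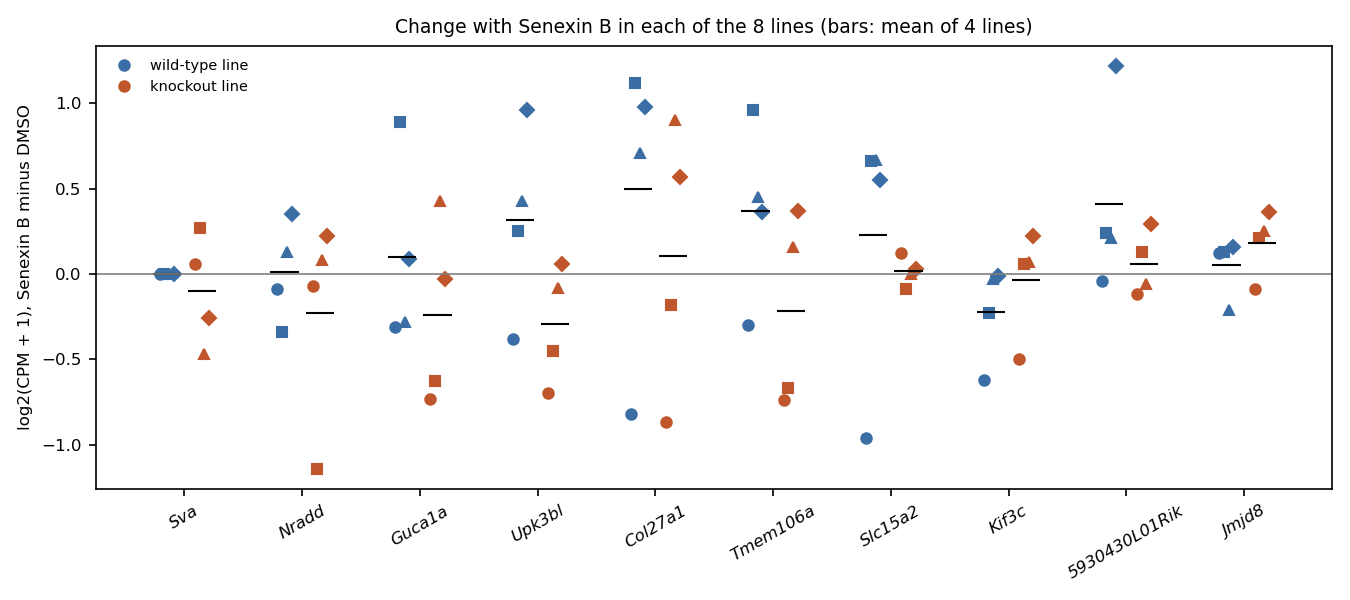
Difference in log2(CPM + 1) between the Senexin B and the DMSO library of each line, for the 10 genes; blue points are wild-type and orange points knockout lines, shapes mark lines 1 to 4, and black bars give the mean of 4 lines. For each gene other than Sva and Kif3c, whose wild-type lines lay at or below 0, points of both genotypes lie on both sides of 0.

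The lines of one genotype differed in direction. With Senexin B, 8 genes were lower and 1 higher in wild-type line 1, and 8 were lower and 2 higher in knockout line 1. In wild-type line 4, 8 were higher and 1 lower, and in knockout line 4, 8 were higher and 2 lower. Over all tested genes the median change was between -0.020 and 0.004 in each of the 8 lines. The sources do not say whether lines of the 2 genotypes with the same number belong together, and no test was made of these counts. Single lines set the extremes: on the log2(CPM + 1) scale the difference was -1.14 for Nradd in knockout line 2, -0.87 and 0.90 for Col27a1 in knockout lines 1 and 3, and 1.22 for 5930430L01Rik in wild-type line 4.

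Whether the response to Senexin B differed between genotypes was fitted as an interaction. The genotype difference, for which the genes were chosen, is part of this estimate. Not all 10 genes ranked high in DMSO. By the unadjusted p of edgeR, 5930430L01Rik ranked 122 in DMSO and 2 with Senexin B, and Jmjd8 161 and 5. The choice can therefore favour estimates of either sign, and nothing is read from their signs. The interaction was called for 0 of the 10 genes without the block, beside 0.0% of 14164 tested genes, and for 0 with the block, beside 0.0%, and DESeq2 called 0. Estimates were negative for 7 and positive for 2 of the 9 genes other than Sva. Upk3bl had the largest, -1.65 (SE 0.80, unadjusted p = 0.0582, adjusted p = 1.00 from edgeR), where the mean level with Senexin B was higher in wild-type and lower in knockout lines. Tmem106a followed with -0.89 (SE 0.67), and those of the other genes lay between -0.52 (Guca1a) and 0.22 (Kif3c). For Sva no interaction can be estimated, because the wild-type libraries hold no counts.

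**Figure D3:**
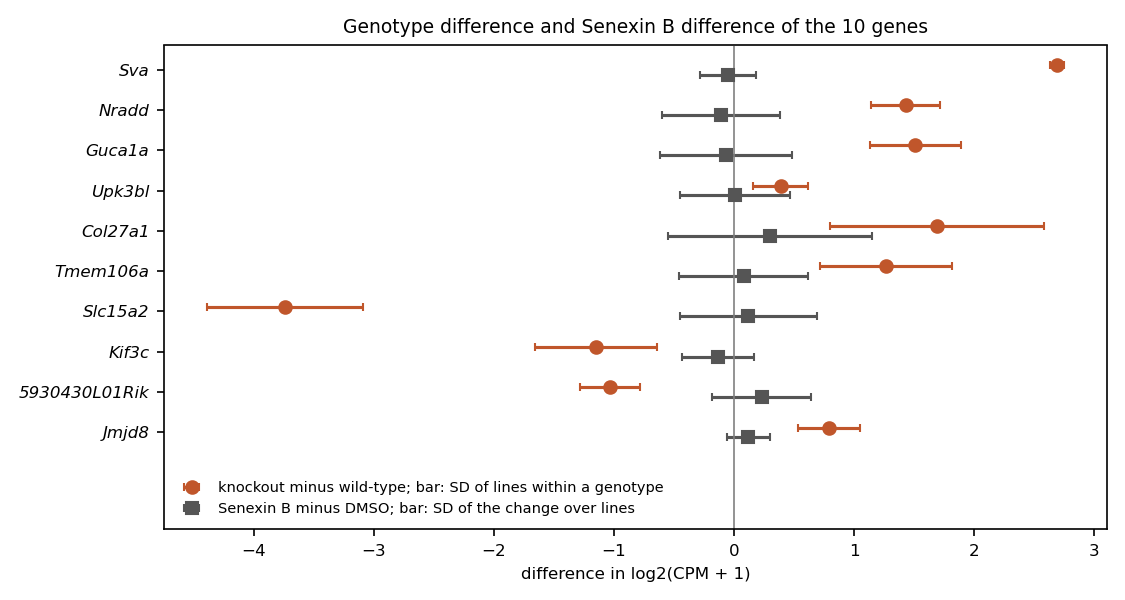
Difference in log2(CPM + 1) between genotypes (orange circles, mean of knockout lines minus mean of wild-type lines; bars give the SD of lines within a genotype) and between treatments (grey squares, Senexin B minus DMSO over 8 lines; bars give the SD of the change over lines within a genotype). Genotype differences run from -3.74 (Slc15a2) to 2.69 (Sva), Senexin B differences from -0.13 (Kif3c) to 0.30 (Col27a1).

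Set side by side on the log2(CPM + 1) scale, the genotype difference was larger than the Senexin B difference in 10 of 10 genes, as the choice of genes favours. Upk3bl had the smallest genotype difference, 0.39, with an SD of 0.23 of lines within a genotype. Its Senexin B difference was 0.01, with an SD of 0.46 of the change over lines. Lines of one genotype differed least for Sva, with an SD of 0.06, and most for Col27a1, with an SD of 0.89; the median SD was 0.335 for the 10 genes and 0.285 for all tested genes.

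The chromosomal surroundings of the 10 genes were not used to choose them. The 10 lie on 8 chromosomes, with Guca1a and Jmjd8 on chromosome 17 and Upk3bl and 5930430L01Rik on chromosome 5. Within 500 kb of a member 144 other genes were tested in DMSO, and 4 of them (2.78%) had an unadjusted p under 0.05, beside 5.32% of all tested genes. Their median log2 fold change was 0.01. The 4 were Sh2b2 near Upk3bl, with a log2 fold change of 3.50 and 5.96 ± 9.68 CPM (SD, n = 4) in knockout libraries, Tmem268 near Col27a1 with -0.37, Plekhh3 near Tmem106a with -2.0, and Rab10os near Kif3c with -1.63. Rab10os, 115 kb from Kif3c and lower in knockout lines as Kif3c was, had 24.3 ± 9.99 CPM in wild-type and 7.68 ± 4.80 CPM in knockout libraries (SD, n = 4 each) without overlap, but its adjusted p of 0.897 did not pass in edgeR. The count depended on single libraries. Without the wild-type DMSO library 1 it was 17 of 145 tested neighbours (11.7%), when 10.6% of all tested genes had an unadjusted p under 0.05. Without wild-type library 3 or 4 it was 7 (4.79%, beside 3.99% of all tested genes) or 9 (6.16%, beside 4.97%). Without knockout library 1 or 4 it was 10 (6.85%, beside 6.21%) or 7 (4.79%, beside 4.41%). Without wild-type library 2, knockout library 2 or knockout library 3 the share was 2.72%, 4.14% or 2.74%, beside 3.59%, 4.52% or 4.29%. The nearest tested gene on each side of the 10 genes, 20 genes in all, had log2 fold changes from -2.0 (Cd86) to 1.07 (Rasa4), with 11 higher and 9 lower in knockout lines, a median of 0.06 and 0 with an unadjusted p under 0.05 in edgeR. Next to Nradd, Setd2 and Nbeal2 (2.502 and 0.337 kb away) had -0.05 and 0.18, and Nbr1, 0.291 kb from Tmem106a, had -0.13. Rasa4, 19.6 kb from Upk3bl, had 1.07, the same direction as Upk3bl, and 1810059H22Rik, 19.9 kb from 5930430L01Rik, had 0.95, the opposite direction. Of the 8 tested genes within 500 kb of Slc15a2, 6 were higher and 2 lower in knockout lines, with a median log2 fold change of 0.17; the 2 lower ones were Cd86 (-2.0, unadjusted p = 0.0948) and Eaf2 (-0.51, unadjusted p = 0.112, edgeR).

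**Figure D4:**
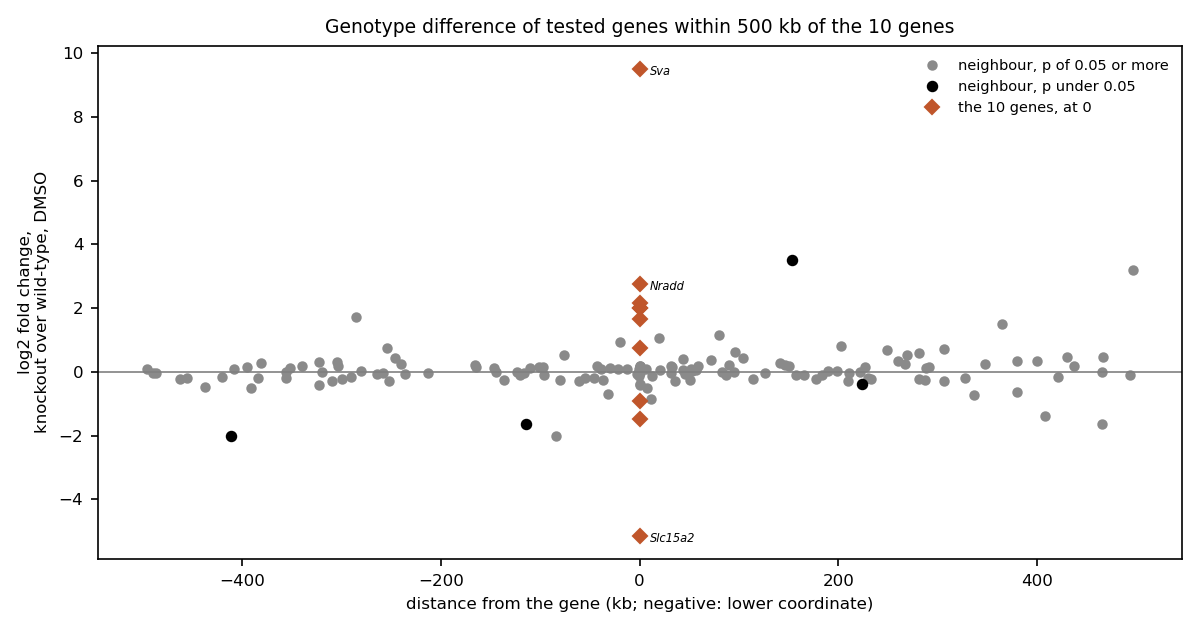
Log2 fold change between knockout and wild-type lines in DMSO (edgeR) of the tested genes within 500 kb of the 10 genes, by distance in kb; orange diamonds at 0 are the 10 genes themselves, black points are neighbours with an unadjusted p under 0.05 and grey points the others. Most neighbours lie near 0 (median 0.01); the fitted value of Sva, 9.51, rests on wild-type libraries without counts and depends on the prior count.

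Genes whose level over the 8 lines was most like that of each member were found by Pearson's r of log2(CPM + 1), averaged over both treatments of a line; the points share their genotype groups and each r is a description. The nearest to Sva were Gm37068 (r = 0.934), Rab11fip1 (0.927), Nkain1 (0.921), Vps53 (0.914) and Exog (0.908). Gm37068, on chromosome 1, also had a mean of 0.0 CPM in both wild-type groups, with 0.868 ± 0.512 CPM (SD, n = 4) in knockout DMSO libraries. Nkain1 was at 0.343 ± 0.221 CPM in wild-type and 1.73 ± 0.66 CPM in knockout DMSO libraries (adjusted p = 0.897, edgeR), whereas Rab11fip1 and Exog had log2 fold changes of 0.18 and 0.27. Col27a1 was closest to Rag1, with r = 0.992, the highest of the 10. Rag1 had 2.73 ± 0.96 CPM in wild-type and 31.0 ± 31.8 CPM in knockout DMSO libraries, and 7.28 ± 6.23 and 51.9 ± 54.4 CPM with Senexin B, so it shared with Col27a1 the wide spread of the knockout lines. Slc15a2 was closest to Rfx2 (r = 0.926), which had 19.2 ± 3.80 CPM in wild-type and 10.3 ± 2.19 CPM in knockout DMSO libraries. For the others the nearest genes were Rab11fip1 (Nradd, r = 0.955), Ikbke (Guca1a, 0.957), Def8 (Upk3bl, 0.967), 1700058P15Rik (Tmem106a, 0.942), Gm6104 (Kif3c, 0.970), Snrnp48 (5930430L01Rik, 0.944) and Eif2ak4 (Jmjd8, 0.945).

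Of the markers of other cells that the lines could hold, few were tested between the genotypes and 0 were called. Summed over 10 T cell markers, of which Lck and Cd5 were tested and 2 had 0 counts in all libraries, the level was 21.6 to 116 CPM in wild-type and 38.4 to 86.8 CPM in knockout DMSO libraries. The 10 erythroid and megakaryocyte markers ranged from 4.77 to 150 CPM and from 4.68 to 206 CPM, and the 10 stromal and endothelial markers from 105 to 413 CPM and from 123 to 287 CPM. Single genes made up most of these sums. Mean wild-type and knockout DMSO levels were 58.0 and 57.9 CPM for Lck, 66.9 and 64.0 CPM for Hbb-bt, and 224 and 179 CPM for Pecam1. The 9 mesothelium and urothelium markers ranged from 8.05 to 29.6 CPM and from 14.5 to 42.3 CPM, mostly from Lrrn4. Myeloid markers summed to 0.512 to 8.12 CPM and 0.638 to 25.2 CPM. In each of these lists 0 genes were called between genotypes in DMSO, beside 0.00759% of 13174 tested genes. None had an unadjusted p under 0.05 in edgeR, beside 5.32% of tested genes. With such shares and few tested markers, nothing is read from these counts. The part of these cells in the levels of the 10 genes was not tested. The sex-linked genes did not divide the lines by genotype. Xist, expressed from the inactive X chromosome, was at 2800 and 2879 CPM in wild-type line 2 and at 4942 and 4052 CPM in knockout line 2, at 154 and 137 CPM in knockout line 1 and at 2.91 CPM or less in the other lines. The Y-linked Ddx3y was at 24.6 to 47.9 CPM in wild-type lines 1, 3 and 4 and at 29.7 to 36.8 CPM in knockout lines 1 and 4, so knockout line 1 had RNA of both genes, and at 0.183 CPM or less in wild-type line 2 and knockout lines 2 and 3, so knockout line 3 had hardly any of either. Of the 6 sex-linked genes, 5 were tested and 0 called. Of 4 genes that differ between C57BL/6 substrains, Nnt, Wdfy1 and Ide were expressed in both genotypes with log2 fold changes of 0.09, 0.00 and 0.13, and Entpd4 had 0 counts throughout.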

How the data were processed

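RNA of 16 libraries was read single-end. The authors trimmed reads with Trimmomatic, mapped them with STAR to GRCm38 and counted them per gene with featureCounts 1.5.1 (file headers) on GENCODE M13, so the deposited values are raw counts, without normalization or strand, and reads on several genes were dropped. Groups came from the labels, which call the controls wildtype.

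The quasi-likelihood model of edgeR 4.0.16 (R 4.3.3) was fitted to the counts (TMM, filterByExpr, robust test, Benjamini-Hochberg over all tested genes; SE from the fold change and F statistic); DESeq2 1.42.0 was an alternative. Each fit held the libraries of the groups compared. Deviations of libraries of one line under both treatments correlated at 0.557 to 0.873 in every pair, so the line was also fitted as a replicate block. Code was tested on simulated data. The 10 genes and all gene lists were chosen with earlier results of these data known. Named are the members, Cdk8, tested genes of the lists, up to 3 neighbours per member with an unadjusted p under 0.05, and the genes most like each member (5 for Sva, 1 for each other); direct neighbours and genes sharing exons were named after their values were seen. Nothing says that the lines came from separate mice, so p-values measure the spread between lines. Figures were drawn with matplotlib 3.10.9.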

Additional observations from a re-analysis of the deposited data

Results flagged for a closer look

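In 5 of 40 sets of 4 libraries (10 genes in 4 groups), 1 library stood apart from the other 3 by Dixon's test at its 95% limit. The wild-type sets of Sva hold only 0 counts and could not pass. Chance alone passes the limit in about 1 of 20 independent sets of normal values. These sets share lines, so nothing is read from their number. Guca1a was 15.4 CPM in knockout line 3 with Senexin B, against 7.39 to 8.66 CPM in the other 3 lines. Upk3bl was 0.494 CPM in wild-type line 4 with DMSO, against 0.384 to 0.396 CPM, on 6 to 7 counts in each of these libraries. Col27a1 was 77.2 CPM in knockout line 3 with DMSO, against 22.9 to 31.5 CPM. Tmem106a was 21.8 CPM and 5930430L01Rik 15.3 CPM in knockout line 1 with DMSO, against 6.87 to 9.18 CPM and 9.06 to 9.91 CPM in the other lines.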

How the results depend on the processing

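For Senexin B and for the interaction, 0 of the 10 genes were called under every alternative run: DESeq2, RLE scaling, no low-count filter, the replicate block, each library left out, and, added after the data were seen, the block with each library left out. The direction of each genotype difference in DMSO was kept in all 13 alternatives for each of the 10 genes. The genes were chosen for this difference, so its direction could hardly change, and nothing is read from it. In the alternative that summed each line over both treatments, the log2 fold change of Upk3bl was 0.80 (unadjusted p = 0.0967, edgeR) and not 1.67. Between genotypes in DMSO, DESeq2 called 7 of the 10 genes and edgeR 0 with a replicate block. The sources do not say that the numbers pair lines of different genotypes. Without each library edgeR called 0, and the adjusted p of Sva was between 0.0628 and 0.41. With Senexin B, DESeq2 called 3 and edgeR 1 without the filter and 1 with the libraries of a line summed. Neighbours with an unadjusted p under 0.05 numbered 13 of 263 by DESeq2 (4.94%, beside 3.67% of all tested genes). Without the filter they were 13 of 265 (4.91%, beside 3.74%), and with the libraries of a line summed 6 of 156 (3.85%, beside 2.49%). Within 200 kb they were 2 (2.7%) and within 1000 kb 15 (5.36%), beside 5.32%. Without each library they were 4 to 17. The share of neighbours thus lay below that of all tested genes in some settings and above it in others. Without 1 library, the Senexin B estimates crossed 0 for 7 genes, ranging from -0.27 to 0.03 (Sva), -0.29 to 0.08 (Nradd), -0.26 to 0.09 (Guca1a), -0.28 to 0.36 (Upk3bl), -0.07 to 0.43 (Tmem106a), -0.14 to 0.59 (Slc15a2) and -0.22 to 0.05 (Kif3c). The cause of these changes was not tested. Low counts limit Upk3bl and the wild-type level of Nradd.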
